A study of Mus musculus with 45 samples.

Results

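Gfap, Clu, Apoe, Lbp, C3, Lcn2, Serpina3n, Aqp4, Cryab and Hspb8 are 10 of the 23575 genes in a long-read RNA sequencing study of mouse neural progenitor cells (NPCs) turned into induced pluripotent stem cells. They were chosen by name, with their behaviour in these data already known: they are genes of reactive astrocytes and of the acute-phase response that were high in wild-type (WT) progenitors after 2 days of serum culture. The values that chose them are their levels in WT progenitors, in WT and factor-carrying cells at day 2, and in later days of reprogramming. Those values are therefore given below as a description with no test. Later sections compare stem cells with progenitors, 2i-LIF with serum late in reprogramming, and factor-carrying with WT progenitors, and each of these reuses libraries of the choice (WT progenitors or late serum days). For the 10 genes these differences are therefore given with their standard errors and no p-value. A p-value is given for them only between stem cells and factor-carrying progenitors, libraries that the choice did not use; other genes are tested in every comparison.

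The 45 libraries are Oxford Nanopore cDNA libraries of 2 kinds. The 22 libraries called R9 are direct cDNA of poly(A)-enriched RNA read on R9.4.1 flow cells. The 23 libraries called R10 are PCR-amplified cDNA of total RNA read on R10.4.1 flow cells. Shared RNA between the 2 chemistries, and separate cultures for numbered libraries, are both unstated in the labels, so the p-values measure only the spread between these libraries, which may be technical.

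All progenitors came from the Oct4-GFP line (O4G), R1 embryonic stem cells that carry GFP under the Oct4 promoter. Progenitors were WT, OKMS-Luciferase-AS or OKS-Luciferase-AS. The last 2 carry doxycycline-induced reprogramming factors (Oct4, Klf4, c-Myc and Sox2 in OKMS, the same without c-Myc in OKS); what Luciferase-AS stands for is not spelled out in the labels. Progenitor medium was N2B27 with EGF, FGF-2 and heparin, on Geltrex. For induction, cells were plated on gelatin in progenitor medium with some fetal bovine serum (FBS), and a day later moved to FBS-LIF, a serum medium with doxycycline. That medium carries leukaemia inhibitory factor (LIF) in its name; the ingredients listed in the labels include serum and do not mention LIF. WT cells at day 2 had the same plating, serum medium and doxycycline as the factor-carrying cells, and no factors. Thus medium, matrix, serum and doxycycline all changed between WT progenitors and WT day 2, and their parts cannot be told apart. OKMS and OKS cells were sampled at days 2 to 20 in FBS-LIF with doxycycline, and at days 14, 18 or 20 also in 2i-LIF, which is LIF with the inhibitors CHIR-99021 and PD0325901 in N2B27. The switch to 2i-LIF came at day 6 in R9, and on an unstated day for R10 day 18. Stem cells in 2i-LIF came from the lines O4G, R1 and R1-Clone3. Each factor-carrying condition has 1 library in each chemistry that holds it; days 14 and 20, and days 4 and 10 of OKS, are in R9 only and day 18 in R10 only.

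Astrocytes answer injury and inflammation by a programme called reactive astrogliosis, in which the intermediate filament protein GFAP rises and secreted proteins of the innate immune system, lipid carriers and chaperones are made. Cytokines of the interleukin 6 and LIF family act through STAT3 on several of these genes, and interleukin 1 and tumour necrosis factor act through NF-kB and C/EBP factors. The same signals drive the acute-phase response in liver, in which plasma proteins such as LBP, C3 and serum amyloid A are secreted. Progenitors grown with EGF and FGF-2 can take an astrocyte fate when given serum or LIF-family cytokines.

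Total counts per library were 447990 to 1390424 reads (median 814718) in R9 and 566599 to 4236442 (median 2342551) in R10. Levels are in CPM, reads scaled to 1 common library total. The share of mitochondrial reads differed between R10 libraries: it was 0.153% to 0.319% in WT progenitors and WT day 2, 1.08% to 1.12% in factor-carrying progenitors, 1.51% and 1.64% in OKMS and OKS at day 2, and 1.56% to 2.35% at day 18 and in the numbered stem cell libraries. One R10 stem cell library, of R1 cells and labelled with no n number, stood apart from the other 6, with a mitochondrial share of 0.124% and reads for genes that were at 0 in the others. The R10 day 18 and numbered stem cell libraries form a separate run of sample numbers in the deposit. This R1 library is in the other run, with all R10 progenitors. Between the other 6 and the progenitors, cell type and run thus cannot be told apart. What the runs stand for is not known here. Progenitor markers (Nes, Sox2, Pax6, Fabp7, Olig2, Sox1, Hes5) summed to 3258 to 5655 CPM in the 4 WT progenitor libraries, of which Fabp7 was 2624 to 5207 CPM, and stem cell markers (Pou5f1, Nanog, Zfp42, Dppa5a, Esrrb, Tdh) to 11001 to 13613 CPM in the 9 stem cell libraries; Sox1 was at 0 in every WT progenitor library.

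In WT progenitors moved to FBS-LIF with doxycycline for 2 days, all 10 genes were higher than in progenitor medium, in both chemistries. For Serpina3n and Aqp4 the R9 difference was only 1 and 2 reads at day 2 against 0 in progenitors, so no direction is read from it. The share of all genes higher in both chemistries was not counted. Taking first the astrocyte structural genes, Gfap (chromosome 11, 102885741 to 102900982, minus strand, mm10), the intermediate filament protein that defines reactive astrocytes, was 5.72 and 5.16 CPM in the R10 WT progenitors and 3015 and 1056 CPM at day 2. In R9 it was 1.34 and 0.968 CPM in progenitors and 236 CPM at day 2. The groups did not overlap, but the 3 day 2 libraries differed from each other more for Gfap than the day 2 libraries did for Clu, Apoe or Lbp. The ratio of the R10 means was 374. Aqp4, the water channel of astrocyte endfeet, had no read in any of the 4 WT progenitor libraries. At day 2 it was at 19.6 and 37.6 CPM in R10 and 2.83 CPM in R9. With a floor of 3 reads over the R10 progenitors together, the 164 R10 reads at day 2 make Aqp4 at least 64.9-fold higher.

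Both lipid carriers were higher at day 2. Apoe (chromosome 7, 19696253 to 19699782, minus strand), which carries cholesterol between glia and neurons, was 16.8 and 16.9 CPM in R10 WT progenitors and 2527 and 3488 CPM at day 2. In R9 it was 70.9 and 10.6 CPM, and 3022 CPM at day 2. The R9 progenitor library with 70.9 CPM was several times above the other 3, and still far below every day 2 library. Clu (chromosome 14, 65968531 to 65981549, plus strand), which encodes the secreted chaperone and apolipoprotein clusterin, went from 2.54 and 3.16 CPM to 1097 and 972 CPM in R10. In R9 it went from 9.36 and 3.87 CPM to 1385 CPM. The 3 day 2 levels of Clu lay close together in the 2 chemistries, and the ratio of day 2 to progenitors was 363 in R10 and 209 in R9.

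Of the acute-phase and complement genes, Lbp (chromosome 2, 158306405 to 158332856, plus strand), whose protein hands bacterial lipopolysaccharide to CD14, was 2.22 and 2.01 CPM in R10 progenitors and 683 and 723 CPM at day 2. In R9 it was 0 and 0.968 CPM and then 338 CPM. C3 (chromosome 17, 57203969 to 57228096, minus strand), the central protein of the complement cascade, was 2.22 and 1.72 CPM and then 419.6 and 511 CPM in R10. Both genes were thus near 2 CPM in R10 progenitors, and for both the groups did not overlap; in R9, C3 was 1.34 and 0 CPM and then 179.7 CPM.

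Lcn2 (chromosome 2, 32384636 to 32388062, minus strand), which binds bacterial siderophores, had 2 reads in the R10 WT progenitors together and 472 at day 2, a ratio of CPM of 280 (exact 95% interval 77.1 to 2319, counting error only). Its day 2 levels were 48.5 and 115 CPM in R10 and 94.8 CPM in R9. Serpina3n (chromosome 12, 104406645 to 104414334, plus strand), a secreted serine protease inhibitor, was the least uniform of the 10: it was 30.1 CPM in 1 R10 day 2 library, 3.95 in the other and 1.41 in R9, against 0 to 0.287 CPM in WT progenitors. Most of its R10 reads at day 2, 77 of 89, came from the first of those libraries. Serpina3n has close paralogues side by side on the chromosome, and how reads were divided among them is not given in the sources used here, so its level is uncertain.

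The small heat shock proteins, which hold unfolded proteins for refolding or disposal, were already present at a few CPM before the change of medium. Cryab (chromosome 9, 50751317 to 50853898, plus strand), encoding alpha-B crystallin, was 6.35 and 10.0 CPM in R10 WT progenitors. At day 2 it was at 950.5 and 1218 CPM. Its deposited models reach far past the GENCODE end of the gene at 50756636, where its leading model ends. Hspb8 (chromosome 5, 116408109 to 116423070, minus strand), a partner of the co-chaperone BAG3, was 4.76 and 6.03 CPM and then 639 and 966 CPM. In R9 Cryab was 4.01 and 12.6 CPM and then 1096 CPM, and Hspb8 4.01 and 5.81 CPM and then 739.9 CPM. The ratio of day 2 to progenitors was near-equal in both chemistries for these genes, 132 for Cryab, and 149 in R10 and 151 in R9 for Hspb8. In bulk RNA such values cannot tell more cells of a kind from more RNA per cell, here and in all that follows.

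**Figure D1:**
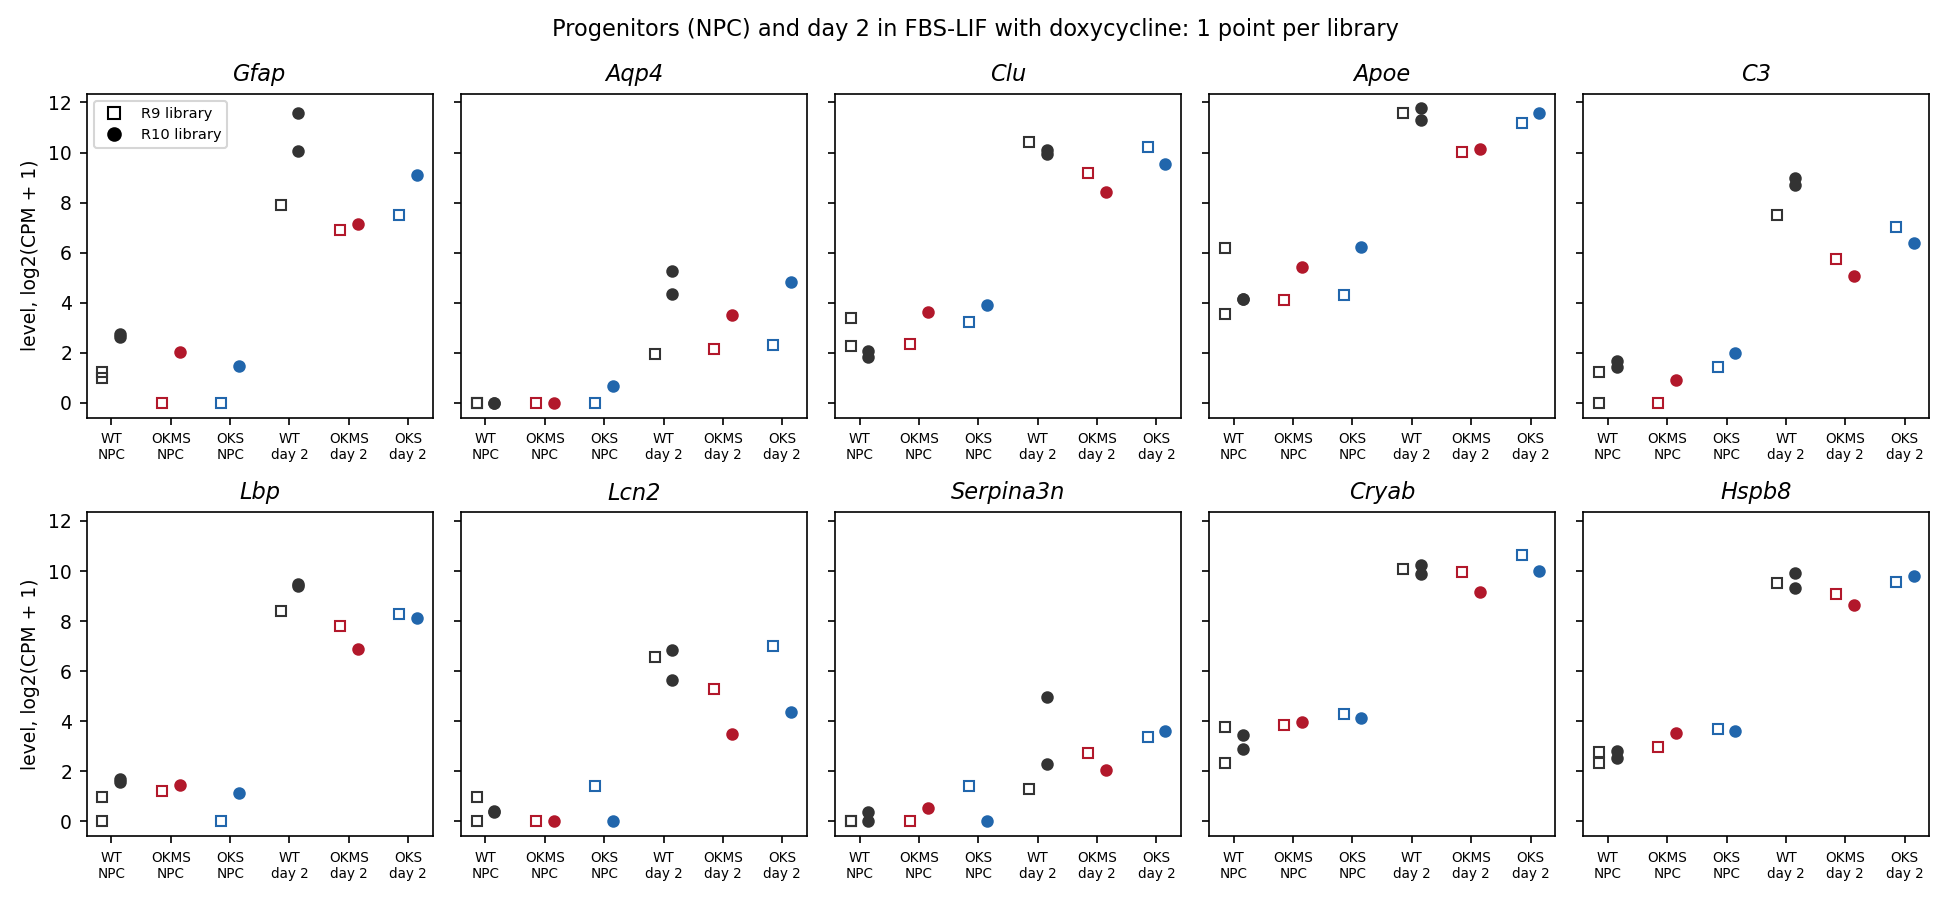
Levels of the 10 genes in progenitor medium (NPC) and at day 2 in FBS-LIF with doxycycline for WT, OKMS and OKS cells; each panel is 1 gene, the vertical axis is log2(CPM + 1), each point is 1 library, open squares R9 and filled circles R10. For every gene the WT day 2 points lie above the WT progenitor points, and for Gfap, C3 and Lbp the R10 OKMS and OKS day 2 points lie below the R10 WT day 2 points.

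Levels were compared between genes on the per-length TPM scale (transcript counts divided by length and scaled to 1 library total), summed over the transcripts of each gene. In the R10 WT day 2 libraries Apoe was highest, at 3601 and 4352 TPM, and it was highest in R9 too, at 4930 TPM. Gfap came next in 1 R10 library (1409 TPM) but not in the other (438 TPM) or in R9 (103 TPM), so its place in the order depends on the library. Hspb8 (539 and 737 TPM) and Cryab (492 and 654 TPM) did not differ beyond the spread of the libraries, and Lbp lay just below them (465 and 437 TPM). Further down were Clu (273 and 224 TPM), Lcn2 (115 and 230.2 TPM) and C3 (105 and 116 TPM), with overlapping ranges for Clu and Lcn2 and for Lcn2 and C3. Aqp4 (9.65 and 25.4 TPM) and Serpina3n (19.3 and 3.47 TPM) were lowest. Length alone does not give this order. Cryab had more CPM than Hspb8 (950.5 and 1218 against 639 and 966) and a shorter leading transcript (1091 bases against 2019), yet no more TPM. How reads were given to transcript models is not stated in the sources used here, so the order between genes is uncertain.

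The deposited long-read models show which transcripts carried these levels. The authors' annotation holds 371 transcripts of the 10 genes, from 3 of Serpina3n to 115 of Apoe, and sorts each by how its splice junctions match GENCODE. Transcripts that match a known transcript's junctions in full made up 92.6% of the TPM of Apoe over all libraries, 94.5% for Lcn2, 93.6% for Cryab, 91.0% for Hspb8, 82.4% for Lbp and 54.1% for Gfap. For Gfap a single coding model of 9 exons, matching Gfap-201 with another 5' end, held 41.1% to 77.6% of the gene's TPM in the 8 libraries with at least 20 TPM; the next, a 2-exon model of 839 bases with a splice site outside the annotation, held 10.9% over all libraries. Lcn2 was carried by the 6-exon Lcn2-201 and Hspb8 by a 3-exon Hspb8-201 model, with 94.5% and 90.3% of their TPM. For Clu and C3 no transcript matched a known one in full. The leading Clu model (9 exons, a new combination of known junctions) held 20.0%. In C3 a 3-exon fragment of 499 bases from the 3' end held 77.5%, against 15.7% for a 41-exon model of 5101 bases. The share of that long model was 2.22% to 15.6% in 6 R9 libraries and 24.5% to 36.5% in 4 R10 libraries with at least 20 TPM. Since TPM divides by length, a short fragment weighs more there than in CPM.

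Apoe was carried by 2 transcripts whose shares moved. Its coding 4-exon model of 1244 bases held 58.0% to 91.4% of the gene's TPM in the 40 libraries with at least 20 TPM. A non-coding 4-exon model of 322 bases with the same junctions held most of the rest. That short model took 9.73% to 29.2% in 19 R9 libraries. In R10 it took 4.21% to 13.4% in 11 libraries (WT cells, factor-carrying cells of days 0 to 10 and the R1 library with no n number) and 25.0% to 34.7% in the 10 others (day 18 and the numbered stem cells). The 2 R10 sets, which were drawn after the values were seen, did not overlap. They also follow the 2 runs of sample numbers. Their mitochondrial shares were 0.124% to 1.64% and 1.56% to 2.35%; the part of RNA or library quality in this was not tested.

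Promoter windows of RefSeq (GRCm38.p6, 250 bases before to 50 after each start) were searched on both strands for motifs of factors that act on acute-phase genes; 6 of the 10 genes were matched to windows that could be used. The motifs were STAT (TTCNNNGAA, found in 8.3% of all 32851 windows), C/EBP (TTGCNNAA, 10.8%), AP-1 (TGANTCA, 7.81%), a part of the nuclear factor I site (TTGGCA, 14.1%) and a heat shock element (GAANNTTC, 7.86%). Clu, Lbp, Cryab and Aqp4 are named only. Of the 8 windows of the 6 genes 5 held a match to any of the 5 motifs, against 38.7% of all windows, and Serpina3n's held none; with so few windows no difference is read from this. Those of Lcn2, C3, Hspb8 and Gfap are shown, since each of these has a single window there, each as 30 bases in the direction of the gene with the matching letters in capitals; the nuclear factor I match in Lcn2 is on the other strand. A match is a run of letters and no evidence of binding, and each motif is common among promoters.
Lcn2, C/EBP, chr2:32387937-32387966, minus strand: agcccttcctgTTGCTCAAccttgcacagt
Lcn2, nuclear factor I, chr2:32387888-32387917, minus strand: ggacagaaatctTGCCAAgtatttcaacag
C3, C/EBP, chr17:57228163-57228192, minus strand: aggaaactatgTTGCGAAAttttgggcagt
Hspb8, C/EBP, chr5:116422909-116422938, minus strand: acaggaggcgcTTGCAAAAcccgcccccag
Gfap, STAT, chr11:102897194-102897223, minus strand: caggctattcaatgggggtgcTTCCAGGAA
C/EBP letters thus stood 38 to 45 bases before the C3 start, 56 to 63 before the Hspb8 start and 209 to 216 before the Lcn2 start, and the STAT letters of Gfap spanned the RefSeq start itself. The leading deposited Gfap and Hspb8 transcripts began 257 and 206 bases upstream of those RefSeq starts, which is outside the Gfap window and inside that of Hspb8. Apoe, with 3 windows, had nuclear factor I letters 52 to 57 bases before 1 of its starts. Hspb8 also had the heat shock letters just after its start, and no AP-1 letters were found in any of the windows of these genes.

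Other genes of the same programmes were read from lists, with the fit over all genes (limma on log2(CPM + 1), where a call needed both an adjusted p, by Benjamini and Hochberg, under 0.05 and a log2 difference of 1 or more in size). In WT cells at day 2 against progenitors, R10, 26.8% of 14688 genes tested were called, 14.9% higher and 11.9% lower, and the median log2 difference of all genes was 0.12. The filter asked for 1 CPM in as many libraries as the smaller group holds. Genes near 0 in progenitors could therefore enter through day 2 alone, and such genes could only come out higher. This holds for each list and for all genes, so the counts of higher and lower genes are a description. The acute-phase and complement list, with 20 of its 30 genes in the table, had 10 of 13 tested genes higher and none lower (median 3.56). They include Cd59a and Serping1, which restrain complement and its first component (log2 difference 6.59 ± 0.29 SE, adjusted p = 0.000783, and 5.89 ± 0.43, adjusted p = 0.00154), Cp, the copper carrier ceruloplasmin (4.67), and C4b, the complement component that works with C3's activation (4.25). The general reactive astrocyte list had 6 of 9 higher, led by Cp, the oncostatin M receptor Osmr (4.48), the metalloreductase Steap4 (4.34) and the chemokine Cxcl10 (1.63).

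The set named for astrocytes in neuroinflammation had 6 of 8 tested genes higher and 1 lower (median 2.80), with Serping1, Fbln5 (4.68), H2-T23 (3.74) and the interferon-induced GTPase Gbp2 (3.05) at its head. The set named for ischaemia had 5 of 8 higher and 1 lower (median 1.40), with Tm4sf1 (5.32), the cytokine Clcf1 (5.06), the lipopolysaccharide co-receptor Cd14 (3.33) and B3gnt5 (-1.87) moving most. Of genes of resting astrocytes 8 of 21 were higher and none lower (median 1.23), among them Atp1b2 (4.00), Mlc1 (2.93) and Cst3 (2.78). Of genes that load or bind ApoE particles, 5 of 14 were higher and 3 lower (median 0.22). The cholesterol exporter Abca1 (4.91) and Apoc1 (2.86) were higher, while the lipoprotein receptor Scarb1 (-3.43) was lower. Among small heat shock proteins and their partners 4 of 12 were higher (median 0.26): Hspb2 (4.22), Hspa1a (3.23), Hspa1b (1.38) and the autophagy receptor Sqstm1 (1.07). Hspb2 lies head to head with Cryab, and whether counting used strand is not given in the sources used here. Of signalling genes 10 of 21 were higher and none lower (median 1.20), led by the interleukin 1 receptor Il1r1 (5.36), the STAT3 target and feedback inhibitor Socs3 (5.03), Osmr and the shared receptor subunit Il6st (4.19).

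These counts rest on 2 libraries against 2. Leaving out WT progenitor replicate 2, WT progenitor replicate 3 or WT day 2 replicate 2 left 0 genes called by limma in the whole table (3300, 3313 and 5486 at an unadjusted p under 0.05), and leaving out WT day 2 replicate 3 left 1141. edgeR's quasi-likelihood test on the recovered reads called 3964 genes with all libraries and DESeq2 3506.

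**Figure D2:**
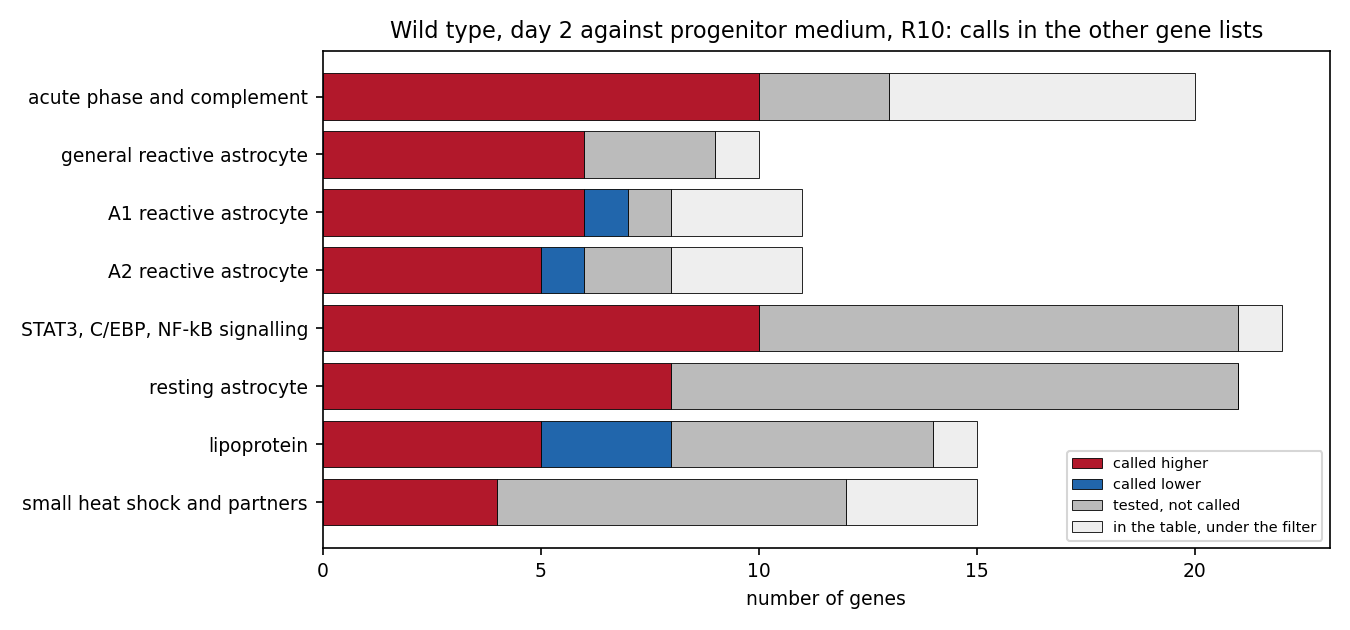
Number of genes called higher, called lower and tested but not called in each of the 8 lists of other genes, WT day 2 against WT progenitors, R10 (horizontal axis, number of genes). The acute-phase and complement list has 10 of 13 tested genes higher, and 3 lists have called genes that were lower.

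Markers of other cell types were summed in the same libraries. Of 10 microglia markers only Csf1r and Tyrobp are in the table, at 0 CPM in WT progenitors and 0 to 2.83 CPM together at day 2, with Tyrobp at 0 throughout. Summed levels were higher at day 2 for ependyma (4 of 5 markers in the table, 97.6 to 164 CPM against 2.90 to 13.4, Ccdc153 at 0 in both groups) and for endothelium and pericytes (5 of 6, 13.3 to 65.1 against 1.91 to 6.78, Cdh5 at 0 at day 2). Of 8 liver and primitive endoderm markers 3 are in the table: Alb was 14.1 to 76.3 CPM at day 2 and 0 to 0.574 before, Gata4 was 0 to 0.391 and 0 to 1.34, and Gata6 was at 0 in both. Neuron markers (5 of 6) were 8.49 to 26.7 CPM at day 2 and 4.01 to 14.0 before, oligodendrocyte lineage markers (3 of 6) 4.31 to 11.3 and 0.287 to 6.78, and fibroblast markers (all 6) 41.9 to 144 and 6.99 to 203, with Col1a2 at 0 in both; these 3 overlapped. Of the fibroblast markers only Col1a1 did not overlap, at 9.40 to 72.2 CPM at day 2 and 0.318 to 8.02 before. Col3a1 and Lum reached 116 and 54.8 CPM before. Of the endothelium and pericyte markers at day 2, Pecam1 was at most 0.329 CPM, Kdr 5.27 to 12.5 and Pdgfrb 0.391 to 49.5. Progenitor markers summed to 2376 to 5047 CPM at day 2, of which Fabp7 was 2048 to 4840 CPM. Olig2 was 3.52 to 9.90 CPM at day 2 against 114 to 237 in progenitors, and Nes 83.5 to 150.3 against 193 to 384. Sox2 was 58.7 to 76.4 CPM at day 2 against 35.9 to 72.6, and Pax6 28.3 to 115 against 14.7 to 35.9. Both had higher medians at day 2, with overlapping ranges. Hes5 was at most 5.35 CPM in progenitors and 0.391 at day 2, and Sox1 was at 0 in both. The part of these marker changes in the levels of the 10 genes was not tested.

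With reprogramming factors, levels of part of the group were lower after the same 2 days of serum; the WT day 2 libraries are those of the comparison above. In the plot of day 2 levels C3 was furthest below WT. In R10 it was 32.4 CPM in OKMS and 82.1 CPM in OKS, against 419.6 and 511 CPM in WT. Gfap was 141 CPM in OKMS and 546 CPM in OKS, both below the lower WT library. Lbp was 119 and 279.5 CPM and Lcn2 10.3 and 19.4 CPM, again below both WT libraries. On the log2(CPM + 1) scale the differences from the WT mean were -3.80 in OKMS and -2.48 in OKS for C3, -3.66 and -1.71 for Gfap, -2.75 and -1.89 for Lcn2, and -2.56 and -1.33 for Lbp.

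For Apoe, Cryab, Hspb8, Aqp4 and Serpina3n the OKS level lay inside the WT range and the OKMS level below it. Apoe was 1129 CPM in OKMS, below both WT libraries, and 3020.5 CPM in OKS, between them. Clu was 345 CPM in OKMS and 752 CPM in OKS, both below the 1097 and 972 CPM of WT, as for Gfap, Lbp and Lcn2. Cryab was 565 and 1023 CPM and Hspb8 403 and 882 CPM. Aqp4 was at 10.3 and 27.2 CPM, and Serpina3n at 3.16 and 11.2 CPM.

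In R9, with 1 library per genotype, the gaps from WT were smaller for C3, Gfap, Lcn2, Lbp, Clu and Hspb8. For Apoe they were larger, at -1.55 in OKMS and -0.40 in OKS, against -1.39 and 0.02 in R10. For Cryab, Aqp4 and Serpina3n the OKMS gaps were smaller in size in R9 and the OKS gaps larger. C3 was 53.1 CPM in OKMS, 128 in OKS and 179.7 in WT, and Gfap 119.8, 182 and 236 CPM. Lcn2 was 38.4 CPM in OKMS and 126 CPM in OKS, the latter above the 94.8 CPM of WT, and Cryab was 998 and 1606 CPM against 1096. In CPM the order OKMS below OKS held for all 10 genes in both chemistries, and OKMS below WT for all but Serpina3n and Aqp4 in R9. Aqp4 had 3 reads in both the OKMS and the OKS library of R9, so its order there comes from the library totals alone. The R9 WT library had 2 reads of Aqp4 and 1 of Serpina3n, so no order is read for these there. The share of all genes with these orders was not counted, and the day 2 levels are among the values that chose the genes. The mitochondrial share at day 2 was 1.51% and 1.64% in the factor libraries of R10 against 0.165% and 0.319% in WT, and 0.708%, 0.727% and 0.688% in OKMS, OKS and WT of R9. In R10 the factors and this share cannot be told apart.

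Across all genes the R10 test of factors against WT at day 2 called 0.74% of 15402 genes, 110 (0.714%) higher and 4 (0.026%) lower. Under median centring 399 were called, 72.4% of them higher instead of 96.5%. No gene of the lists of other genes was called except Emp1, a membrane protein of the ischaemia set, at 4.90 ± 0.46 SE (limma adjusted p = 0.00191); without the OKMS library, the OKS library or WT replicate 3, 0 genes were called in the whole table (1384, 3192 and 1452 at an unadjusted p under 0.05).

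Over the later days of culture in FBS-LIF with doxycycline the group came apart by gene and by factor system. In OKMS, Gfap went from 119.8 CPM at day 2 to 4.17, 9.55, 0, 0 and 0 CPM at days 4, 6, 10, 14 and 20 (R9). In OKS it was 182, 67.7, 40.2, 40.2, 2.48 and 0.719 CPM at the same days. Gfap was thus under 10 CPM in R9 from day 4 in OKMS and from day 14 in OKS. In R10 it was 23.4, 4.42, 2.55 and 1.48 CPM at days 4, 6, 10 and 18 in OKMS, and 149.8 and 1.28 CPM at days 6 and 18 in OKS. Aqp4 in OKS was 4.01, 3.81, 10.7, 31.2, 19.0 and 0.719 CPM at the 6 R9 days, and 27.2, 28.6 and 3.84 CPM at days 2, 6 and 18 in R10. It did not pass 4.22 CPM in the R9 OKMS libraries.

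In R9 OKS, C3 was higher at days 4 to 10 than at day 2, and Clu at days 4 and 6. C3 was 128 CPM at day 2, 253 at day 4, 361 at day 6 and 384 at day 10, then 11.6 at day 14 and 0 at day 20 (R9). In OKMS it was 53.1, 31.3, 60.0 and 4.22 CPM at days 2 to 10 and at most 1.06 CPM after. Day 10 of OKS was the highest R9 level of C3, above WT at day 2. Clu in OKS was 1197, 1480.0, 1633, 1071, 423 and 101 CPM, and in OKMS 581, 234, 186, 184, 103 and 35.7 CPM. The highest Clu level of the 45 libraries was the R9 OKS library of day 6, and every OKS level of Clu lay above the OKMS level of the same day in both chemistries (6 days in R9, 3 in R10).

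In R9 OKS, Cryab and Hspb8 at days 4 to 10 were closer to their day 2 level than in R9 OKMS. Cryab in OKS was 1606, 1567, 1538, 1153 and 1266 CPM at days 2 to 14 and 187 CPM at day 20 (R9). In OKMS it was 998 CPM at day 2 and between 157 and 221 CPM from day 4 to day 20. Hspb8 in OKS was between 645 and 761 CPM up to day 10, then 300.3 and 43.1 CPM. In OKMS Hspb8 was 546, 87.6, 75.1, 139, 111 and 12.3 CPM at the 6 R9 days. In R10 OKMS, Cryab was 565, 115, 131, 242 and 80.1 CPM at days 2, 4, 6, 10 and 18, and Hspb8 403, 107, 96.3, 119 and 99.4 CPM. In R10 OKS, Cryab was 1023, 1080.3 and 175 CPM at days 2, 6 and 18, and Hspb8 882, 789.7 and 83.2 CPM. At day 20 of R9 the 2 systems had near-equal Cryab, whereas at day 14 OKS was at 1266 CPM and OKMS at 211 CPM.

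Apoe had no steady direction in OKMS. It was 1028, 426, 970.2, 1694, 655 and 446 CPM at the 6 R9 days. In R10 OKMS it was 1129 CPM at day 2, 366 at day 4, 153 CPM at day 6, 1607 at day 10 and 2073 at day 18. In OKS it was 2604, 1570.4 and 1653 CPM at days 4, 6 and 10, 176 CPM at day 14 and 679.8 CPM at day 20 (R9), and 642 CPM at day 18 in R10. The lowest OKMS level was at day 4 in R9 and day 6 in R10, and the next lowest R9 level was at day 20. Lbp was lower at later days in both systems: 223, 36.6 and 0 CPM at days 2, 10 and 20 of OKMS and 308, 75.9 and 0 CPM in OKS. Lcn2 at day 10 of OKMS was 59.1 CPM in R9 and 16.1 in R10, above its day 2 and day 6 levels in both chemistries. Serpina3n reached 28.1 CPM in OKMS and 26.8 in OKS at that day in R9, but 3.39 CPM in the R10 library of OKMS.

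**Figure D3:**
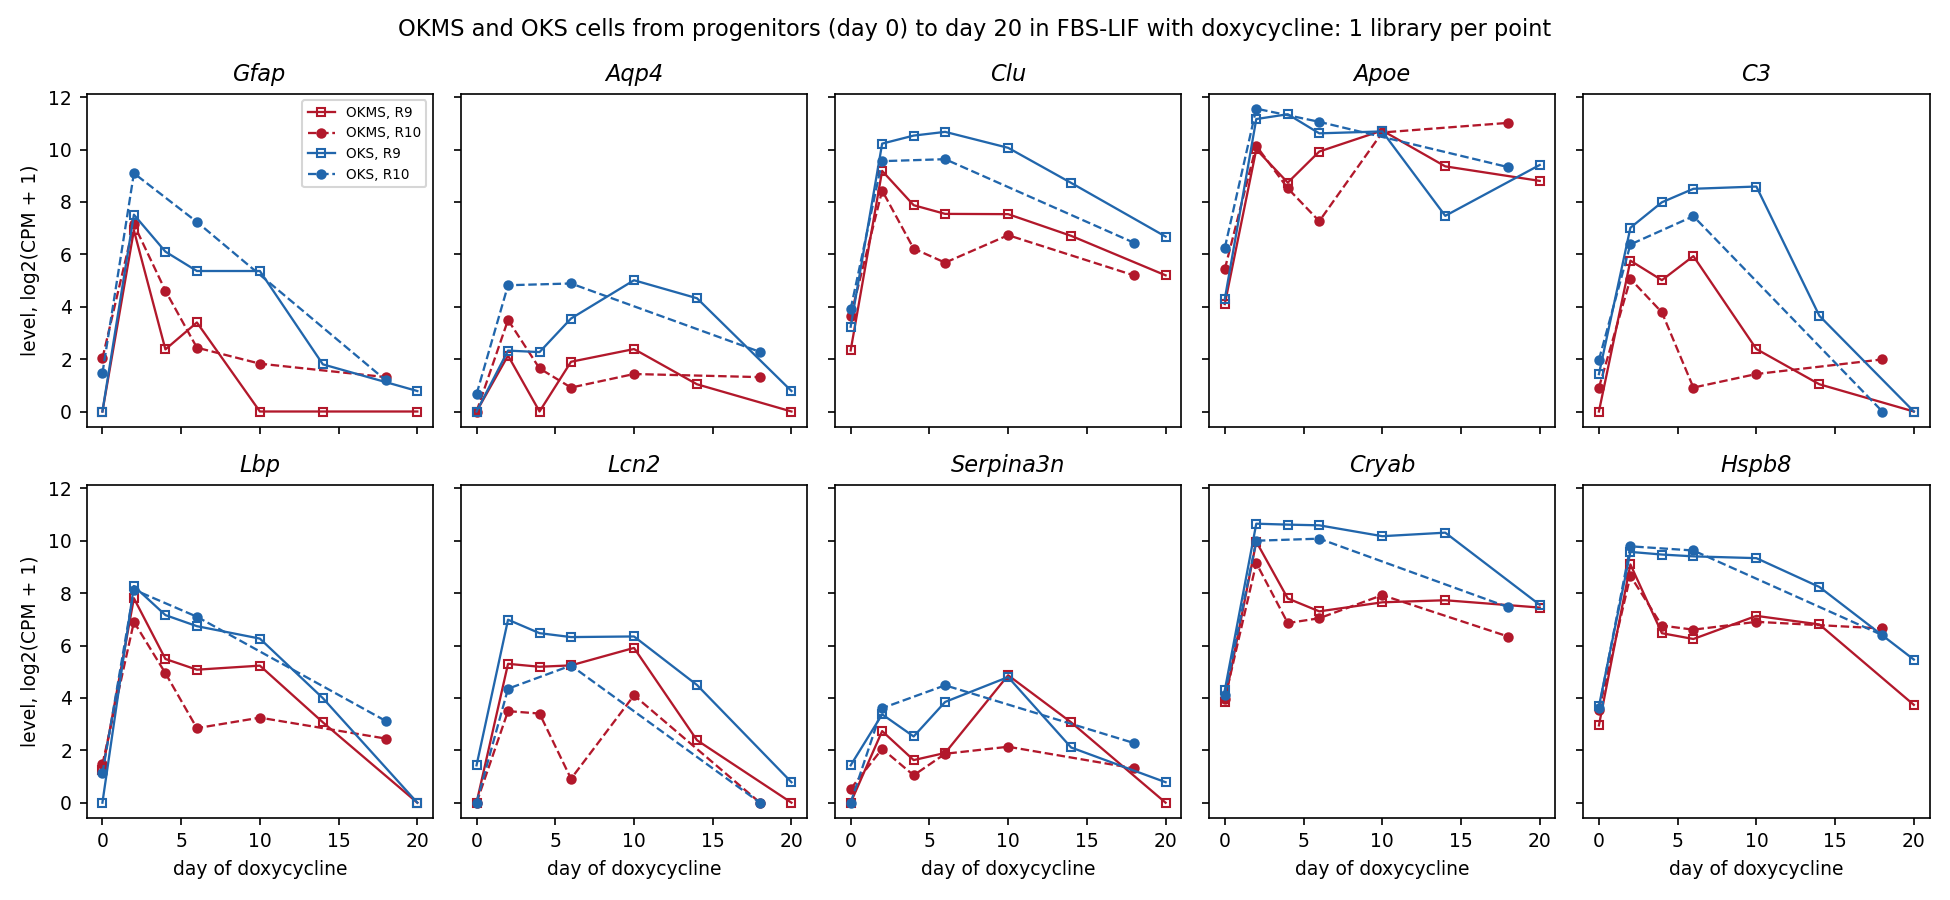
Levels of the 10 genes over days 0 to 20 in FBS-LIF with doxycycline, each panel 1 gene, vertical axis log2(CPM + 1), horizontal axis day, each point 1 library; OKMS red, OKS blue, R9 squares with solid lines, R10 circles with dashed lines. In R9 OKS, C3 is above its day 2 level at days 4 to 10 and Clu at days 4 and 6, while in OKMS Clu and Cryab lie below their day 2 level at every later day, and Apoe in OKMS is higher at day 10 than at day 4.

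Counting days at which both systems were sequenced, OKS was above OKMS at all 6 R9 days for Clu, Cryab, Aqp4, Gfap, Hspb8 and Lcn2, at 5 for C3 and Lbp, and at 4 for Apoe and Serpina3n. At day 20 of R9 the OKS level of Gfap, Lcn2, Aqp4 and Serpina3n was 1 read each, against 0 in OKMS. The OKS library there held 1390424 reads and the OKMS library 811389. At day 2 of R9 Aqp4 had 3 reads in each system. No order is read from these days for these genes. Of the 3 R10 days OKS was above OKMS at all for Clu, Cryab, Aqp4, Lbp and Serpina3n, and at 2 for Gfap, Hspb8, Lcn2, C3 and Apoe. At day 18 Hspb8 was 99.4 CPM in OKMS and 83.2 in OKS. With 1 library per day and system these gaps have no replicate check. The share of all genes with OKS above OKMS on these days was not counted. Over the same R9 days 10.7% of 19357 genes differed from day 0 by limma's moderated F test (5.5% higher and 5.24% lower at their largest difference). Of the lists of other genes, resting astrocyte genes had 9 of 21 called lower and 2 higher, with S100b at -6.56, Mlc1 at -6.54, Nfia at -5.45 and Sox9 at -4.81 at their largest difference from day 0. General reactive genes had 4 of 10 higher and 2 lower, and the acute-phase and complement list 5 of 19 higher and 2 lower, with Cd59a at 6.62 (limma adjusted p = 0.000449), Serping1 at 6.60, C1s1 at 5.51 and C1ra at 5.28. Signalling genes had 9 of 22 higher and 1 lower, led by Bcl3 (5.13), Socs3 (5.11), Cebpd (4.42) and Osmr (3.90). The neuroinflammation and ischaemia sets had 3 of 10 and 5 of 11 higher and none lower, lipoprotein genes 2 of 15 higher and 5 lower, and chaperone genes 3 of 14 higher and 2 lower. Without the factor system as a term 318 genes were called in the table instead of 2078, and without day 20, 601.

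Of the 10 genes, Apoe and Hspb8 were high in stem cells, and Lbp, C3, Lcn2, Aqp4 and Serpina3n had few or no reads there. In the 7 R10 stem cell libraries Apoe ranged from 471 to 1581 CPM (median 932), against 16.8 to 74.8 CPM (median 29.6) in the 4 R10 progenitor libraries of all genotypes. Hspb8 ranged from 74.5 to 134 CPM (median 95.3) against 4.76 to 11.1 (median 8.28). The groups did not overlap for either gene, and the log2 difference was 4.73 ± 0.38 SE for Apoe and 3.44 ± 0.22 for Hspb8. In R9, with 2 stem cell libraries against 4 progenitor libraries, Apoe was 651 and 695 CPM against 10.6 to 70.9 (4.87 ± 0.69), and Hspb8 63.3 and 67.2 CPM against 4.01 to 11.8 (3.12 ± 0.39). In each chemistry 2 of the 4 progenitor libraries are the WT libraries of the choice. These fits called 45.8% of 15415 genes in R10 and 36.0% of 15746 in R9.

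A test against the 2 factor-carrying progenitor libraries alone, which was added after the data were seen, leaves those WT libraries out. Both kinds of progenitor share line and medium, so low progenitor levels go with the choice. The p-values that follow are not independent of it. By limma Apoe was higher in stem cells by 3.89 ± 0.41 SE in R10 (adjusted p = 1.32e-05) and by 5.20 ± 0.15 in R9 (adjusted p = 0.0019). Hspb8 was higher by 2.99 ± 0.21 in R10 (adjusted p = 6.87e-07) and by 2.73 ± 0.33 in R9 (adjusted p = 0.00605). In R9 this sets 2 libraries against 2. Clu was lower in R10, at -2.04 ± 0.29 (adjusted p = 0.000135); in R9 it passed the filter on low values through the progenitors, so no test is read from it. Cryab did not pass, at 0.77 ± 0.44 in R10 (adjusted p = 0.152) and -0.84 ± 0.33 in R9 (adjusted p = 0.114), nor did Gfap in R10 (-0.35 ± 0.47, adjusted p = 0.53). This test called 44.8% of 16712 genes in R10 and 38.5% of 14699 in R9. In R10 the mitochondrial share of these progenitors was 1.08% and 1.12%.

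Against all progenitors, Cryab was 10.1 to 46.9 CPM (median 31.0) in R10 stem cells and 6.35 to 16.4 in progenitors, a difference of 1.20 ± 0.34. The ranges overlapped, and in R9 the stem cells had 7.57 and 9.31 CPM against 4.01 to 18.5 (-0.33 ± 0.56). Clu was 1.34 to 4.11 CPM in R10 stem cells against 2.54 to 14.0 in progenitors (-1.12 ± 0.37), and the difference in R9 was -2.33 ± 0.49. In R10 this rests on the factor-carrying progenitors, which had 11.4 and 14.0 CPM: against the WT progenitors alone the difference was -0.21.

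C3 and Lbp were low in both groups and passed the filter on low values through the progenitors, so no test is read from them. C3 was 0.879 to 2.92 CPM in R10 progenitors and 0 in 6 of 7 stem cell libraries. Lbp was 1.17 to 2.22 CPM against 0 in 5 of 7. Gfap was 1.75 to 5.72 CPM against 0.471 to 5.60 (-0.83 ± 0.37), with overlapping ranges. Aqp4 and Serpina3n had no read in any stem cell library, and Lcn2 had 1 read in 1 of 7; none of the 3 passed the filter.

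The R1 library with no n number held the highest R10 stem cell values of Gfap (5.60 CPM), Clu (4.11), Lbp (2.99), C3 (2.241) and Lcn2 (0.373), with a mitochondrial share of 0.124% against 1.81% to 2.35% in the other 6. Without it the difference of Gfap was -1.05, and C3 was left under the filter. With it as the only stem cell library the differences of Gfap, Lbp and C3 turned to 0.51, 0.53 and 0.19. It is the only R10 stem cell library in the progenitors' run of sample numbers. Median centring moved the median of all genes from 0.01 to 0.24.

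**Figure D4:**
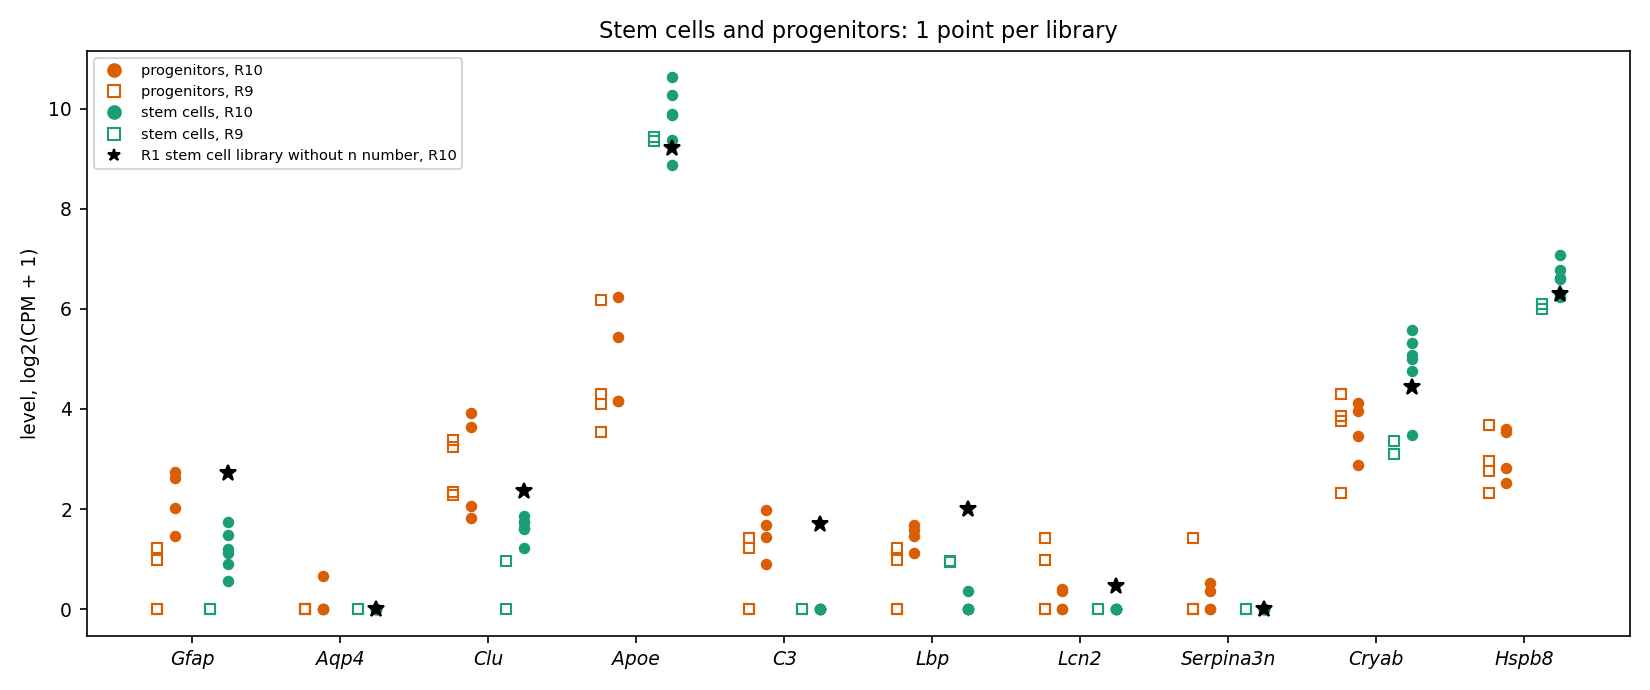
Levels of the 10 genes in progenitors in progenitor medium (orange, 4 R9 and 4 R10 libraries) and in stem cells in 2i-LIF (green, 2 R9 and 7 R10 libraries), vertical axis log2(CPM + 1), each point 1 library; the star is the R1 library with no n number. Apoe and Hspb8 are higher in all stem cell libraries than in all progenitor libraries, and the star is the highest R10 stem cell point for Gfap, Clu, Lbp, C3 and Lcn2.

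In the same comparison over all genes, 22.4% were called higher and 23.5% lower in R10, and 17.6% and 18.4% in R9. Resting astrocyte genes were lower in R10 stem cells for 16 of 20 tested genes and higher for 2 (median log2 difference -2.99, against 0.01 for all genes), with Mlc1 at -7.30, Nfia at -7.28, S100b at -6.54 and Sox9 at -6.14. The acute-phase and complement list had 7 of 11 higher and 1 lower (median 1.74): Cd55, which breaks down the C3 convertase, was higher by 4.15 ± 0.28 (limma adjusted p = 2.89e-09), Saa3 by 4.01 and Serping1 by 3.23, and Cp was at -5.83. Of the lipoprotein genes 3 of 15 were higher and 7 lower. Apoc1, the neighbour of Apoe in the apolipoprotein cluster, was higher by 6.998 ± 0.28 (adjusted p = 1.05e-11) and Pltp by 3.79, with Vldlr at -3.53 and Sort1 at -2.87. Near the shares over all genes were the chaperone and signalling lists. Chaperone genes had 3 of 12 higher and 2 lower, with Hspb1 at 5.73, Hspb2 at 3.04, Hspa8 at 1.37 and Hspb6 at -1.30. Signalling genes had 5 of 20 higher and 6 lower, with Bcl3 at 4.93, Socs3 at 3.46, Relb at 3.04 and Lifr at -2.77. General reactive genes had 2 of 6 higher and 3 lower, the neuroinflammation set 4 of 6 higher, and the ischaemia set 1 of 6 higher and 2 lower. In R9 the counts of higher and lower genes were 2 and 15 of 21 for resting astrocyte genes, 6 and 2 of 11 for the acute-phase and complement list, and 3 and 7 of 15 for lipoprotein genes. They were 2 and 1 of 14 for chaperone genes (Hspa8 not called), 3 and 5 of 20 for signalling genes (Lifr not called) and 2 and 3 of 6 for general reactive genes. The neuroinflammation set had 6 and 1 of 9 (H2-T23 lower, at -2.58), and the ischaemia set 1 and 3 of 7.

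Medium late in reprogramming was compared over 5 pairs of 2i-LIF and FBS-LIF with doxycycline, matched for chemistry, factor system and day (R9 OKMS days 14 and 20, R9 OKS day 20, R10 OKMS and OKS day 18). Clu was 6.11, 5.37, 4.66, 3.53 and 6.26 CPM in 2i-LIF and 103, 35.7, 101, 35.6 and 85.8 CPM in FBS-LIF, in that order. Cryab was 13.4, 21.5, 29.1, 31.7 and 29.7 CPM in 2i-LIF and 211, 174, 187, 80.1 and 175 CPM in FBS-LIF. Both genes were lower in 2i-LIF in 5 of 5 pairs and the 2 media did not overlap. The FBS-LIF libraries are among the values that chose the genes, so these differences are described and not tested. In the paired limma fit, which called 12.3% of 14935 genes (5.95% higher and 6.32% lower), the log2 difference was -3.44 ± 0.32 SE for Clu and -2.66 ± 0.27 for Cryab.

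Apoe was also lower in 2i-LIF in 5 of 5 pairs, at 474, 390.2, 212, 1026 and 355 CPM against 655, 446, 679.8, 2073 and 642. Its difference was -0.84 ± 0.18. Hspb8 was higher in 2i-LIF in 4 of 5 pairs (0.59 ± 0.32); its FBS-LIF level at day 20 of OKMS was 12.3 CPM, the lowest of the 10 libraries. C3 was 39.1 CPM in the R10 OKS day 18 library in 2i-LIF and at most 2.97 CPM in the other 9 libraries. Its difference of 1.04 ± 0.75 turned to -0.035 without that pair; Lcn2 was highest in the same library, at 17.2 CPM. Gfap, Lbp and Serpina3n were under 8 CPM in all 10 libraries, and Lcn2 and Aqp4 were under the filter.

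**Figure D5:**
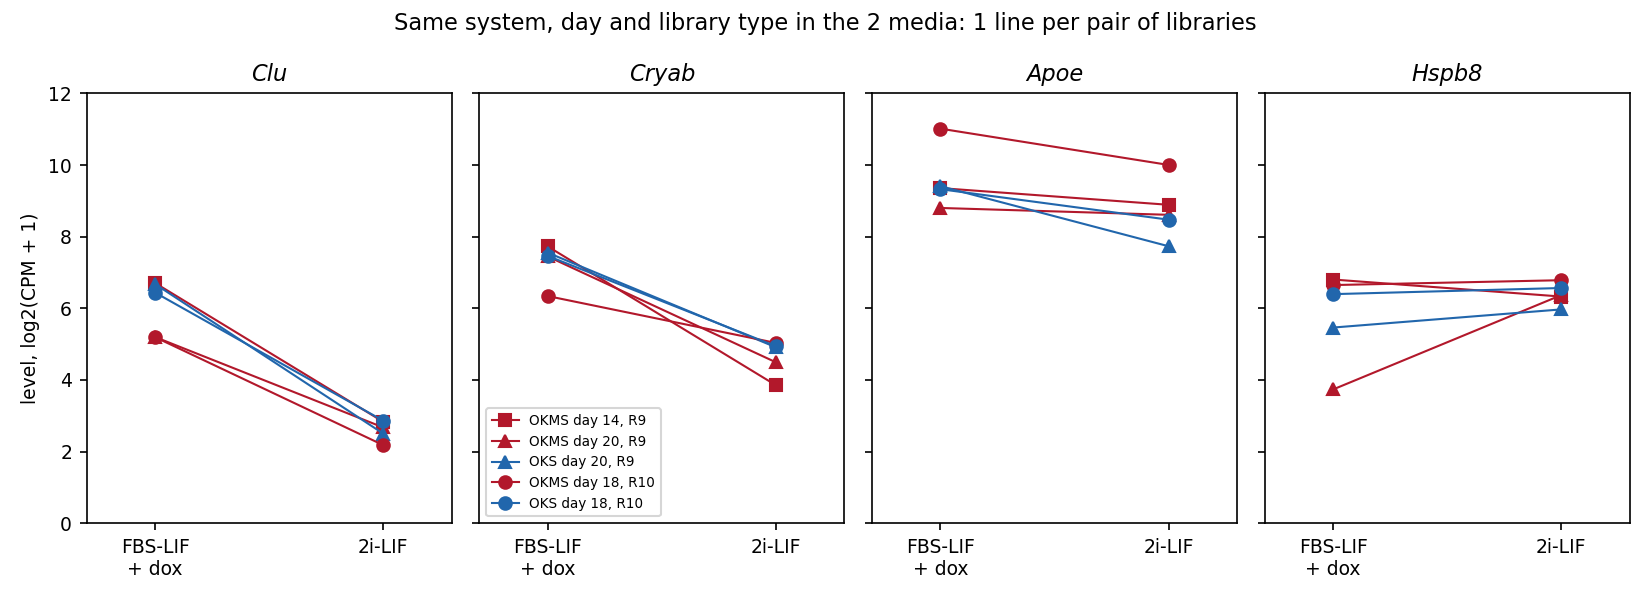
Clu, Cryab, Apoe and Hspb8 in the 5 pairs of libraries from FBS-LIF with doxycycline and 2i-LIF, vertical axis log2(CPM + 1), each line 1 pair. Clu, Cryab and Apoe go down from FBS-LIF to 2i-LIF in all 5 pairs and Hspb8 goes up in 4.

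Of the other lists, the acute-phase and complement genes had 5 of 12 higher in 2i-LIF and 1 lower, with Saa3 at 3.49 ± 0.43 (limma adjusted p = 3.3e-05), Saa1 at 3.00 and C1s1 at -2.60. The ischaemia set had 4 of 9 lower: Tm4sf1 (-5.42), Cd109 (-2.62), Emp1 (-2.60) and S100a10 (-2.50). Resting astrocyte genes had 5 of 15 lower (3 without the R9 OKMS day 14 or the R9 OKS day 20 pair), with Gja1 at -3.31, Slc1a3 at -2.79, Fgfr3 at -1.88 and Aldoc at -1.55. Of 15 lipoprotein genes 3 were higher, among them Apoc1 (1.91) and Scarb1 (1.02), and Lrp1 (-1.11) was lower. General reactive genes had Cd44 (-2.99) and Vim (-1.74) lower of 6, the neuroinflammation set Gbp2 (-3.34) and H2-T23 (-1.51) lower and Fbln5 (2.64) higher of 8, signalling genes Nfkb1 (-1.68) lower of 20 (0 called without the R9 OKMS day 14 or the R10 OKS day 18 pair), and chaperone genes none of 12. Stem cell markers summed to 9800 to 15721 CPM in 2i-LIF and 5676 to 15642 in the 5 paired FBS-LIF libraries. Of these sums Dppa5a was 5608 to 11955 and 3843 to 14001. Nanog was 1008 to 1361 CPM in 2i-LIF and 206 to 303 in FBS-LIF, Zfp42 973 to 1284 and 295 to 725. Esrrb was 207 to 281 and 90.9 to 159. The media did not overlap for Nanog, Zfp42 and Esrrb, and did for Pou5f1, Tdh and Dppa5a. Fibroblast markers summed to 6.45 to 20.3 and 7.42 to 78.3 CPM. Neuron markers summed to 219 to 346 and 658 to 988 CPM, of which Stmn2 was 149 to 281 and 604 to 931, with Rbfox3, Snap25 and Syt1 at 0 in 2i-LIF and at most 3.17 in FBS-LIF. Endothelium and pericyte markers summed to 74.2 to 113 and 14.8 to 57.9 CPM, of which Pecam1 was 62.3 to 106 and 11.1 to 50.4. Cdh5 was at 0 in 2i-LIF. In the 9 stem cell libraries Stmn2 was 182 to 434 CPM and Pecam1 35.1 to 75.4. Neither gene was thus particular to neurons or endothelium in these data. The part of the marker differences between the media in the levels of Clu and Cryab was not tested.

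Before any induction the factor-carrying progenitors were compared with WT progenitors in the same medium, 4 libraries against 4 with chemistry as a term. The test called 0.0% of 13647 genes, 0 by limma (1148 at an unadjusted p under 0.05), 2 by edgeR and 14 by DESeq2. Clu was 11.4 and 14.0 CPM in R10 OKMS and OKS progenitors and 2.54 and 3.16 CPM in WT. In R9 it was 4.04 and 8.43 CPM against 9.36 and 3.87. The R10 groups did not overlap and the R9 groups did, and the joint log2 difference was 0.89 ± 0.44 SE. In R10 alone, where 212 genes were called, the difference was 1.83 for Clu and 1.68 for Apoe, while in R9 alone they were at -0.044 and -0.66. The mitochondrial share was 1.08% and 1.12% in these R10 factor-carrying progenitors and 0.273% and 0.153% in WT; in R9 the factor-carrying progenitors, at 0.700% and 0.557%, lay between the 2 WT libraries. Its part in the R10 differences was not tested. The joint differences were -1.02 for Gfap, 0.95 for Cryab, 0.83 for Hspb8, 0.51 for Apoe, -0.11 for Lbp and -0.01 for C3.

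Genes with the most similar pattern were ranked among 9509 genes by Pearson's r of log2(CPM + 1) over the 22 R9 libraries, with r over the 23 R10 libraries beside it. The libraries share conditions and chemistry, so these are descriptions with no test. Clu was most like Pdlim2 (0.99 in R9, 0.94 in R10), Klhdc8a (0.97, 0.94) and Anxa3 (0.97, 0.85), and Cryab most like Myl9 (0.98, 0.88), Ctnnal1 (0.97, 0.93) and Ccn1 (0.96, 0.92). Lbp and Lcn2 had Ccn5 and Gm14866 in common: r was 0.96 and 0.96 for Lbp in R9 and 0.95 and 0.94 for Lcn2. Lbp's other was Depp1 (0.95, 0.89) and Lcn2's was Pdpn (0.96, 0.79). Apoe was most like Socs3 (0.92, 0.94), Atp6v1f (0.91, 0.81) and Nmnat2 (0.91, 0.94); its R9 values were the lowest of the 8 genes that could be ranked. C3 was most like Aox3 (0.97, 0.75), Daam2 (0.96, 0.89) and Ifitm2 (0.96, 0.89), and Gfap most like Gm43391 (0.96, 0.95), Gm30613 (0.96, 0.96) and Crygs (0.96, 0.94). Hspb8 was most like the unannotated transcript unit on its opposite strand (0.96, 0.90), Sfrp1 (0.94, 0.91) and Shroom3 (0.94, 0.87); reads of the first may be reads of Hspb8 itself, since whether counting used strand is not given in the sources used here.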

How the data were processed

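The submitters' processing notes name minimap2 2.24-r1122 and the genome build mm10. Per the file headers, the authors deposited a gene table in CPM (reads per gene scaled to a common total), a transcript table in TPM, transcript models and a classification table whose other columns give each model's class. Reads divide into whole numbers in 100.0% of CPM values (tolerance 0.02 read), so reads were recovered for edgeR 4.0.16 and DESeq2 1.42.0, the alternatives; edgeR called 3964 genes for WT day 2. Columns of no listed sample (13) and 20 genes with no name were not used. Groups and replicates follow the labels.

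The main tests were limma 3.58.1 (R 4.3.3, trended) on log2(CPM + 1), a scale that understates the change of low genes, over genes with at least 1 CPM in as many libraries as the smaller group holds. A call needed a Benjamini-Hochberg adjusted p under 0.05 over all genes tested and a log2 difference of at least 1. The medium fit is paired, and the progenitor fit has chemistry as a term. Alternatives were another pseudocount (0.25), filter (none, 5 CPM) and scaling, the other tools, left-out libraries and single chemistries. Scripts were tested on simulated data. Intervals and floors (3 reads) cover counting error only.

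All 10 genes are named. Of each other list up to 4 called genes per comparison, those of largest absolute difference, are named, except a few that are not reported here; of transcripts, the leading one and any with a large share. The genes, lists and motifs were chosen with earlier results of these data known, and the reactive astrocyte sets came from general knowledge of the field.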

Additional observations from a re-analysis of the deposited data

Results flagged for a closer look

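Within groups of 4, 5 or 7 libraries, 16 of 66 gene and group sets had 1 library far from the others by Dixon's criterion. Most of these values are 1 or a few reads, and a set with every other library at 0 is always flagged. Some sets also share libraries. The usual rate of about 1 in 20, which is for normal values in separate groups, therefore cannot be set against this count. The R10 stem cell library of R1 cells with no n number was far above the other 6 for Gfap (5.60 CPM), Lbp (2.99), C3 (2.241) and Lcn2 (0.373); its mitochondrial share was also apart. The R9 WT progenitor library 1 was high for Apoe (70.9 CPM) among the R9 progenitors and among all WT progenitors. Among progenitors, Aqp4 had 0.584 CPM in the R10 OKS library (1 read), Serpina3n and Lcn2 had 1.69 CPM each in the R9 OKS library (1 read), and Serpina3n had 0.287 CPM in R10 WT replicate 3 (1 read).

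In the pairs of late media, C3 was 39.1 CPM in the R10 OKS day 18 library in 2i-LIF and Aqp4 1.76 CPM in the R10 OKMS day 18 library in 2i-LIF. In FBS-LIF the R10 OKMS day 18 library had the highest Apoe (2073 CPM) and the lowest Cryab (80.1 CPM), and the R9 OKMS day 14 library the highest Lcn2 (4.22 CPM).

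A pair of features beside the 10 genes, outside the comparisons, had signal at WT day 2 above WT progenitors. A model that joins Apoe to its neighbour Tomm40 was at 12.7 CPM (median of 3 libraries) against 0 to 8.57 CPM, and the unit opposite Hspb8 at 28.3 CPM against 0 to 0.287 CPM. Neither was tested.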

How the results depend on the processing

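Precision is limited by 2 to 4 libraries in most groups, 1 per factor-carrying condition, and by reads of 0 to 7 per library for the low genes in progenitors. Whether same-numbered WT libraries of R10 belong together is not stated in the labels. They correlated in their deviations (r = 0.474, over 2 pairs). Their mitochondrial shares in progenitors and at day 2 were 0.273% and 0.319% for replicate 2, and 0.153% and 0.165% for replicate 3. The main fit had no replicate block, and with it 5605 genes were called for WT day 2 instead of 3940.

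Counts of all genes that moved over 1.5 times were, for WT day 2, 0 to 1141 with 1 library left out and 1562 in R9 alone. For factors at day 2 (114) they were 74 with a pseudocount of 0.25, 181 at a minimum of 5 CPM, 399 with median centring, 29 with quantile normalization, 334 by edgeR, 482 by DESeq2, 0 to 115 with 1 library left out, 0 in R9 and 232 with both chemistries. For the R9 time course (2078) they were 4573 by edgeR, 601 to 2423 with 1 day left out and 318 with no factor system term. For 2i-LIF (1832) they were 1210 to 1908 with 1 pair left out, 1166 in R9 pairs and 188 in R10 pairs. For factor-carrying progenitors (0) they were 2 by edgeR, 14 by DESeq2, 0 to 37 with 1 library left out and 212 in R10.

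Directions turned as follows. With the R1 library alone as stem cells, Gfap was 0.51, Lbp 0.53 and C3 0.19. With 1 pair left out, C3 in 2i-LIF was -0.035 to 1.79. In factor-carrying progenitors C3 was -0.32 to 0.25 and Lbp -0.40 to 0.088 with 1 library left out, and in R9 Clu was -0.044, Apoe -0.66 and C3 0.10. For factors at day 2, with 1 library left out, Apoe was -1.39 to 0.025, Aqp4 -1.32 to 0.0040, Hspb8 -0.96 to 0.17 and Serpina3n -2.13 to 0.52. Serpina3n was 1.78 in R9 and 0.23 with both chemistries, and in R9 Aqp4 was 0.29 and Cryab 0.21. The cause was not tested, except that fewer libraries were used where 1 was left out.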
